A study of Homo sapiens with 8 samples.

Results

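Untreated cells of 2 derivatives of LS174T, an established human colon adenocarcinoma line, were compared gene by gene. The members were all genes with a deposited value of at least 10 in at least 2 of the 4 untreated libraries, which gave 21000 of the 57736 genes listed. They held 99.8% of the summed values of those libraries. One derivative, called the ASCL2 line here, carries a short hairpin RNA against ASCL2, and the other, the WiNTRLINC1 line, carries one against the long non-coding RNA WiNTRLINC1. Both derivatives make the Tet repressor, and in both the hairpin is induced by doxycycline. Each untreated group held 2 libraries from cells grown for 3 days in DMEM with serum and without doxycycline. A further 4 libraries, 2 per line, came from cells grown for 3 days in doxycycline at 1 ug/ml. They took no part in choosing the members and compare the same lines in other libraries, after induction of both hairpins.

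The study itself asked what loss of ASCL2 or of WiNTRLINC1 changes, and it used the untreated cells as the control of each line. The WiNTRLINC1 line was made from clones picked for knockdown, and the ASCL2 line came from earlier work. The labels do not say whether each line is a single clone. Clone, hairpin and culture history therefore differ together between the lines and cannot be told apart. Any difference in library preparation between the lines could not be told apart from them either. Groups follow the sample titles, because the genotype label of every sample names the other target. If the genotype labels were right, the line names would be exchanged and every direction given here would turn. Nothing in the labels says that the replicates are separate cultures. The p-values and standard errors reflect the spread between 2 libraries of a group, pooled over the 4 groups of all 8 libraries. That spread may be purely technical. WiNTRLINC1 itself was not analysed here.

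LS174T cells have active Wnt signalling through beta-catenin, are deficient in mismatch repair, and make mucins, as goblet cells do. Wnt signalling keeps the stem cells at the base of the intestinal crypt, marked by LGR5 and ASCL2, while Notch, BMP and the factors ATOH1, SPDEF, KLF4 and CDX2 take part in forming secretory and absorptive cells. Cells of a tumour line differ in gene expression from clone to clone, through heritable differences in DNA sequence, copy number, DNA methylation and cell state.

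The deposited values are whole numbers per gene, read counts that the authors scaled per library, and they are not divided by gene length. Levels are therefore compared between lines for 1 gene, never between genes. Untreated totals lay between 21524463 and 22344811. Differences are given as log2(value + 1) of the WiNTRLINC1 line minus the ASCL2 line, so a positive value means higher in the WiNTRLINC1 line. The scale understates differences of genes with low values. A gene was called at an adjusted p under 0.05 in limma with Benjamini-Hochberg adjustment over all members. All 9 colon epithelium markers examined, among them EPCAM, CDH1, VIL1 and CDX2, were detected in every untreated library.

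The lines differed in most members, and mostly by less than 2-fold. Of the members, 12090 (57.6%) were called, 5606 (26.7%) higher and 6484 (30.9%) lower in the WiNTRLINC1 line. The balance of directions turned with the scaling. It was 6033 higher and 6093 lower under median-of-ratios rescaling, 6434 and 5943 under quantile normalization, and 6571 and 5647 with each library's trend on transcript length and GC content removed. A difference of at least 2-fold was called for 5037 members (24.0%), 2108 (10.0%) of them higher and 2929 (13.9%) lower. At 8-fold the counts were 235 higher and 438 lower, and at 32-fold 40 and 67. Both libraries of one line lay beyond both of the other for 16215 members (77.2%). The median absolute log2 difference between the lines was 0.53, against a median gap of 0.16 between replicates in each line. Among 13173 members with a mean of at least 100, 2286 (17.4%) had line means at least 2-fold apart, while 36 (0.273%) had replicates that far apart in either line. The first principal component of the 4 untreated libraries separated the lines and held 87.8% of the variance.

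Some members were bound to differ by the way they were chosen. A value of 10 was reached only in the WiNTRLINC1 line by 649 members and only in the ASCL2 line by 887, leaving 19464 that reached it in a library of each. Members that reached it in a single line include MAGEA11, CDH10, PRDM9, MALRD1, PYDC2-AS1, LINC02241, COL6A2 and EGFL7, named below. Their direction was fixed by the choice. Just inside the threshold, 445 genes had 10 as their second-highest value, with a median highest value of 12. Just outside it, 379 genes had 9, with a median highest value of 11. Of the gene classes, long intergenic RNAs were called at 2-fold or more most often, for 47.6% of 809 members, followed by antisense RNAs with 43.2% of 915. The share was 21.2% for the 13641 protein-coding genes. Calls of any size were made for 63.0% of protein-coding genes and 57.0% of long intergenic RNAs. Pseudogenes had 43.6% of 4649 called, and 21.2% at 2-fold or more. The share at 2-fold or more also varied with the mean value, from 39.4% of members with a mean of 30 to 100 to 10.7% of those with 1000 to 3000, and the part of this in the order of the classes was not tested. Calls of any size became more frequent with level, with 33.2% below a mean of 30 and 73.8% at 3000 or more.

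**Figure D1:**
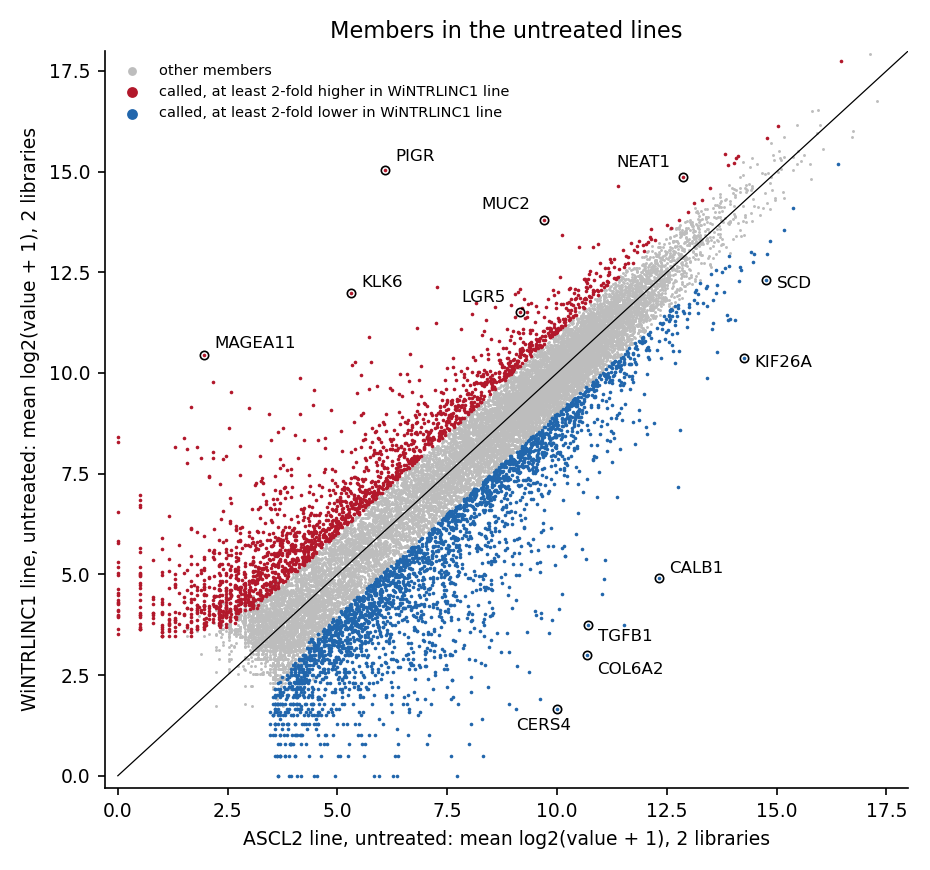
Mean log2(value + 1) of the 2 untreated libraries of the ASCL2 line (x axis) and of the WiNTRLINC1 line (y axis), 1 point per member. Red and blue points are the 2108 and 2929 members called at least 2-fold higher or lower in the WiNTRLINC1 line. PIGR lies far above the line of equality, and TGFB1, COL6A2 and CERS4 far below it.

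Promoters of 4 genes that separate the lines at high values in one of them are shown, because their density of CG dinucleotides differs. They are the 250 bases before the RefSeq start in GRCh38.p14, read 5' to 3' on the gene's strand, with CG in capitals. PIGR and MUC2 were higher in the WiNTRLINC1 line, and TGFB1 and COL6A2 were higher in the ASCL2 line.
PIGR, chr1:206946467-206946716, minus strand: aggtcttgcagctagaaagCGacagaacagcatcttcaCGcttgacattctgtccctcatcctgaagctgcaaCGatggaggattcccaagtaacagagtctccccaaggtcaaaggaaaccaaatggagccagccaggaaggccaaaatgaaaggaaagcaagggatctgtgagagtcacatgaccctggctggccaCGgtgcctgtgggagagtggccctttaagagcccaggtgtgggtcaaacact
MUC2, chr11:1074624-1074873, plus strand: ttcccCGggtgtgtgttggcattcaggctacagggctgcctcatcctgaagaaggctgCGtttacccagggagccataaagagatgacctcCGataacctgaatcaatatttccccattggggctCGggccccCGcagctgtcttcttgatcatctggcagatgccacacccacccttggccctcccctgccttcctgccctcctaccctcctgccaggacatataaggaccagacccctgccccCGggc
TGFB1, chr19:41353923-41354172, minus strand: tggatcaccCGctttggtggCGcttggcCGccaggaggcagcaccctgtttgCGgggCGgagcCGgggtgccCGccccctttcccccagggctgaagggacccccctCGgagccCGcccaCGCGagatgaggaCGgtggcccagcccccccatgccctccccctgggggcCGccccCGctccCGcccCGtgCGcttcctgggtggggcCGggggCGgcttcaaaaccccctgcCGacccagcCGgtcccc
COL6A2, chr21:46097862-46098111, plus strand: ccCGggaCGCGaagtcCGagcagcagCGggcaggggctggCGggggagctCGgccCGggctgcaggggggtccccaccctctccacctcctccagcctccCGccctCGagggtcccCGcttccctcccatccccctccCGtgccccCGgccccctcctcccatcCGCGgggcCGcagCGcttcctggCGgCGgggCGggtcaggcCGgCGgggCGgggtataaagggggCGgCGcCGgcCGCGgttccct
The PIGR promoter holds 4 CG and the MUC2 promoter 6, while those of TGFB1 and COL6A2 hold 21 and 28. CG reads the same on both strands. Over all 27305 RefSeq promoters of this length, 51.9% held at least 10 CG. The share was 80.6% over the 11901 members that matched a promoter by symbol, 61.0% over 856 matched members called at least 2-fold higher in the WiNTRLINC1 line and 74.1% over 1723 called at least 2-fold lower. The motif TATAAA, searched on both strands in the 50 bases before the start, was in 5.37% of the higher members and 3.19% of the lower ones, against 2.58% of all matched members and 3.76% of all promoters. The median CG count was 14 (quartiles 4 and 24) for the higher members and 19 (quartiles 9 and 28) for the lower ones. It was 20 (quartiles 12 and 28) for all matched members. These ranges overlap, and the 4 promoters shown differ more than the medians do. All these figures describe the letters of the reference. DNA methylation was not measured.

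The largest differences toward the WiNTRLINC1 line included genes nearly silent in the ASCL2 line. PIGR, the receptor that carries polymeric antibodies across epithelia, had values of 58 and 76 in the ASCL2 line and 33889 and 33910 in the WiNTRLINC1 line. The libraries of the lines lay far apart, with a log2 difference of 8.97 ± 0.106 (SE, n = 2 per line) and a limma adjusted p of 2.89e-16 (Benjamini-Hochberg). KLK6, a secreted serine protease, had 42 and 35 against 4172 and 3936, a log2 difference of 6.69. MAGEA11, a cancer-testis antigen of the X chromosome, had 2 and 4 against 1375 and 1429. Its relatives in the MAGEA family share sequence, so its reads may be split among copies.

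Further genes in this direction were the cadherin CDH10, with 1 and 4 in the ASCL2 line and 579 and 562 in the WiNTRLINC1 line, and PRDM9, the histone methyltransferase that places meiotic recombination, with 5 and 5 against 771 and 702. MALRD1 had 4 and 3 against 842 and 921. The intergenic RNAs PYDC2-AS1 and LINC02241 were listed at 0 in both ASCL2-line libraries, so no fold is given, and reached 347 and 337, and 307 and 313. Use of strand in the authors' counting is not given in the sources used here, so the antisense name of PYDC2-AS1 is uncertain.

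Some of the largest differences in the other direction were in genes of secreted proteins. TGFB1, a ligand that restrains epithelial growth, had 1595 and 1718 in the ASCL2 line and 13 and 12 in the WiNTRLINC1 line. The libraries did not overlap, and the log2 difference was -6.94 ± 0.151 (SE, n = 2 per line; limma with Benjamini-Hochberg, adjusted p = 1.88e-13). COL6A2, a chain of collagen VI, had 1723 and 1565 against 7 and 7, a log2 difference of -7.68. COL6A1, the chain that pairs with it, had 5288 and 5502 against 6966 and 6159 and was called slightly higher, with a log2 difference of 0.28.

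FAM20C, a kinase of secreted proteins, had 815 and 743 in the ASCL2 line and 6 and 1 in the WiNTRLINC1 line. The ceramide synthase CERS4 had 1107 and 956 against 4 and 1. ESPN, an actin-bundling protein of microvilli, had 3138 and 2776 against 12 and 13, a log2 difference of -7.77. In the WiNTRLINC1 line FAM20C and CERS4 lay below the minimum of 10 used for members, and ESPN just above it. CALB1, a calcium-binding protein, stayed detectable there, with 26 and 33 against 5101 and 5124.

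Among genes with a mean of at least 1000 in both lines, the differences were smaller but rested on high values. RGMB, a BMP co-receptor, had 1018 and 1183 in the ASCL2 line and 10726 and 11263 in the WiNTRLINC1 line, a log2 difference of 3.32. DPEP1, a membrane dipeptidase, had 2625 and 2760 against 27157 and 23787, and NEAT1, the RNA scaffold of paraspeckles, 7124 and 7821 against 29485 and 30172. ALDH3A1, BAG6, LENG8, ADGRB1 and CRYBG1 were also higher, with log2 differences from 1.98 for CRYBG1 to 2.63 for LENG8. KIF26A, an unconventional kinesin, had 19304 and 19885 in the ASCL2 line and 1380 and 1256 in the WiNTRLINC1 line, a log2 difference of -3.89. SCD, the desaturase that makes oleic acid, had 26967 and 28459 against 4961 and 5194. CKB, ACAA2, AKR1B1 and SUPT4H1 were lower too, by log2 differences between -2.42 and -3.12.

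ASCL2, the gene targeted in one line, had 2855 and 3373 in the untreated ASCL2 line and 2540 and 2034 in the untreated WiNTRLINC1 line. The groups did not overlap, and the log2 difference was -0.45 ± 0.117 (SE, n = 2 per line), called at an adjusted p of 0.00434 in limma with Benjamini-Hochberg adjustment. The call was lost without the second library of the ASCL2 line (adjusted p = 0.0623) and without the second of the WiNTRLINC1 line (0.0812). With the trend on transcript length and GC content removed, the difference turned to 0.62. With doxycycline the values were 532 and 586 in the ASCL2 line and 805 and 697 in the WiNTRLINC1 line, lower than every untreated library of either line.

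Most genes that mark crypt stem cells were higher in the WiNTRLINC1 line. LGR5, the receptor for R-spondins, had 553 and 589 in the ASCL2 line and 2858 and 2942 in the WiNTRLINC1 line, a log2 difference of 2.34. SMOC2, a secreted matrix protein, had 953 and 997 against 3995 and 3895. OLFM4, a secreted glycoprotein of crypt-base cells, had 2 and 5 against 178 and 160. In each of these 3 genes the lines were well separated. OLFM4, however, reached the minimum in the WiNTRLINC1 line alone and had to be higher. Of 19 stem cell genes among the members, 13 were called higher and 5 lower, with a median log2 difference of 0.78. Over all members 26.7% were called higher and 30.9% lower, with a median of -0.05, and every list is read against these values. Among members with a mean of at least 100, 67.2% were called, and lists of such genes are read with that share in mind. The median of all members was 0.04 under quantile normalization and 0.05 with the length and GC trend removed. LRIG1, CDCA7, TERT and EPHB2 were among the higher ones. SOX9, a factor of crypt progenitors, went the other way, with 14800 and 14193 against 6192 and 6240. BMI1, MEX3A, ALCAM and, as given above, the stem cell marker ASCL2 were also called lower.

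Wnt targets as a list were split between the lines. Of 22 members, 10 were called higher and 8 lower, with a median of 0.08. AXIN2, a feedback inhibitor induced by beta-catenin in most cells, had 3814 and 3793 in the ASCL2 line and 3442 and 3501 in the WiNTRLINC1 line and was not called. The secreted or membrane inhibitors NOTUM, with 114 and 95 against 6 and 9, and DKK4, with 49 and 48 against 7 and 12, were called lower. LEF1 was also called lower. NOTUM and LEF1 reached the minimum in the ASCL2 line alone and had to be lower. APCDD1, another inhibitor, was called higher, with 46 and 51 against 363 and 353. MYC, CCND1 and ZNRF3 were not called.

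Secreted mucins and trefoil peptides were higher in the WiNTRLINC1 line. MUC2, the main mucin of the colon, had 849 and 807 in the ASCL2 line and 14633 and 14085 in the WiNTRLINC1 line, a log2 difference of 4.11. MUC5AC, a gastric mucin, had 177 and 131 against 4492 and 4546. TFF2 had 162 and 138 against 2617 and 2227, and TFF1 and TFF3 were also called higher. MUC5B and MUC6 were called higher as well, while the membrane mucins MUC1 and MUC13 were called lower. MUC1 reached the minimum in the ASCL2 line alone and had to be lower. Of 22 members of the goblet cell list, which also holds the gastric MUC5AC, 13 were called higher and 8 lower, with a median of 1.0. The 13 include 4 mucins and 3 trefoil peptides.

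The transcription factors of the goblet cell lineage did not all go with the mucins. ATOH1, which commits cells to the secretory lineage, had 27 and 20 in the ASCL2 line and 58 and 74 in the WiNTRLINC1 line, and its call was lost when any of these 4 libraries was left out, with adjusted p from 0.0738 to 0.186. KLF4 had 3499 and 3152 against 960 and 892, a log2 difference of -1.84. SPDEF, which drives goblet cell maturation, had 86 and 74 against 29 and 34, a call lost with the length and GC trend removed (adjusted p = 0.0813). The disulfide isomerase AGR2 and the glycosyltransferase GALNT12 were also called lower. GALNT12, which starts mucin-type glycans, had 422 and 504 against 7 and 16.

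Absorptive genes among the members were mostly lower in the untreated WiNTRLINC1 line. Of 14 members, 10 were called lower and 3 higher, with a median of -0.74. The list held 25 genes, and CA1, CA2, CA4, SLC26A3 and AQP8 had at most 6 in every untreated library. In the treated libraries 7 members were called lower and 5 higher, with KRT20, CEACAM6 and PHGR1 among the higher ones. CDHR5, a cadherin of the brush border, had 1153 and 1232 in the ASCL2 line and 239 and 186 in the WiNTRLINC1 line. CEACAM5, the carcinoembryonic antigen, had 3512 and 3027 against 1331 and 1314, a log2 difference of -1.30. The keratin KRT20 had 269 and 221 against 124 and 154. The 3 members called higher in untreated cells were FABP1, DPP4 and CEACAM7. FABP1, the fatty-acid carrier of enterocytes, had 6 and 4 against 146 and 96. It reached the minimum in the WiNTRLINC1 line alone and had to be higher. DPP4 had 416 and 487 against 912 and 983. Among the lower members, ALPI reached the minimum in the ASCL2 line alone and had to be lower.

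A few genes of rare secretory cells were nearly restricted to the WiNTRLINC1 line. NEUROG3, the factor that starts the enteroendocrine lineage, had 0 and 1 in the ASCL2 line and 101 and 102 in the WiNTRLINC1 line. PAX4, which acts downstream of it, had 4 and 3 against 50 and 42, whereas the peptide hormone gene CCK had 27 and 21 against 0 and 1. Of 10 enteroendocrine genes, 4 were called higher and 2 lower. Of these, NEUROG3, PAX4 and INSM1 reached the minimum of 10 in the WiNTRLINC1 line alone and CCK in the ASCL2 line alone, so their direction was set by the choice of members. PLA2G2A, an antimicrobial phospholipase of Paneth cells, had 39 and 46 against 712 and 732. The Paneth defensin DEFA5 was listed at 0 in both ASCL2-line libraries and had 13 and 38 in the WiNTRLINC1 line, and LYZ was not called. Of 4 Paneth cell genes, 3 were called higher, but DEFA5 and DEFA6 reached the minimum in the WiNTRLINC1 line alone and had to be higher. The libraries are bulk RNA, so a change in the number of cells of a type and a change in RNA per cell cannot be told apart.

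**Figure D2:**
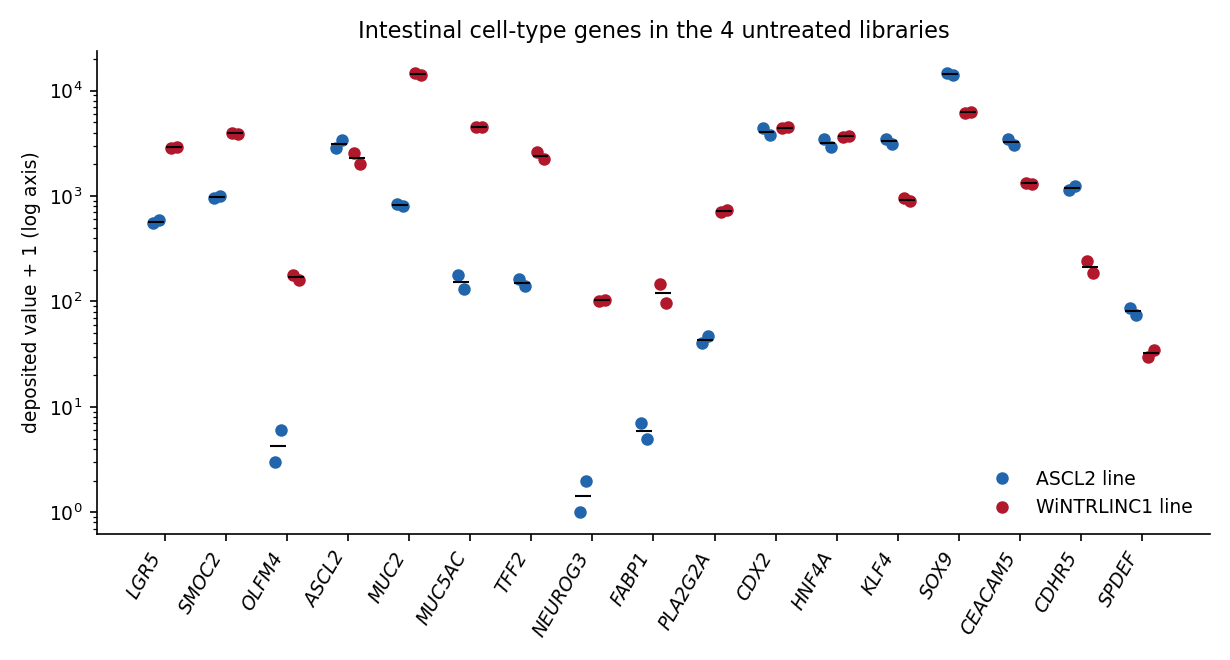
Deposited value + 1 on a log axis for 17 intestinal genes in the 2 untreated libraries of the ASCL2 line (blue) and of the WiNTRLINC1 line (red), with a black bar at the mean of the log values. LGR5, MUC2, MUC5AC and TFF2 are higher in both red libraries, KLF4, SOX9, CEACAM5 and CDHR5 are lower, and CDX2 and HNF4A lie close together and were not called.

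Factors that define intestinal epithelium were present in both lines. CDX2 had 4409 and 3787 in the ASCL2 line and 4412 and 4484 in the WiNTRLINC1 line, side by side, and was not called. With the length and GC trend removed it was called, with a log2 difference of 0.21. HNF4A had 3471 and 2906 against 3605 and 3754. It was not called either (limma with Benjamini-Hochberg, adjusted p = 0.0525). Among other alternatives, it was called under median-of-ratios rescaling (0.0187) and over protein-coding genes alone (0.0345). Without the first library of the ASCL2 line its log2 difference was 0.34, against 0.21. Of 24 lineage factors, 14 were called lower, among them KLF5, SOX9 and FOXA1, and 4 higher, CDX1, ISX, ONECUT2 and ELF3. The counts were 11 lower and 7 higher with the length and GC trend removed. ISX, a homeobox factor of vitamin A control, had 4 and 13 against 58 and 60.

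HOX genes, which keep a record of position along the body axis, differed by cluster. In the HOXB cluster 7 of 9 members were called higher in the WiNTRLINC1 line and 2 lower. HOXB6 had 633 and 516 in the ASCL2 line and 4480 and 4254 in the WiNTRLINC1 line, HOXB8 106 and 131 against 1086 and 1234, and HOXB4 12 and 12 against 199 and 198. HOXB7, which lies among them, was called lower, with 1022 and 949 against 612 and 693, as was HOXB13. In the HOXA cluster 5 of 10 members were called lower, HOXA7, HOXA9, HOXA10, HOXA11 and HOXA13, and 2 higher, HOXA2 and HOXA5. HOXC13 had 107 and 92 against 6 and 6, and 3 of 5 HOXC members were called lower, while HOXC6 and HOXC9 were not called. The 3 lower ones, HOXC8, HOXC10 and HOXC13, reached the minimum in the ASCL2 line alone and had to be lower. In the doxycycline-treated libraries 23 of the 24 HOX members, which include 5 not called, kept the sign of the difference, HOXA11 being the exception. Of all 12090 called members, 11293 (93.4%) kept theirs.

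**Figure D3:**
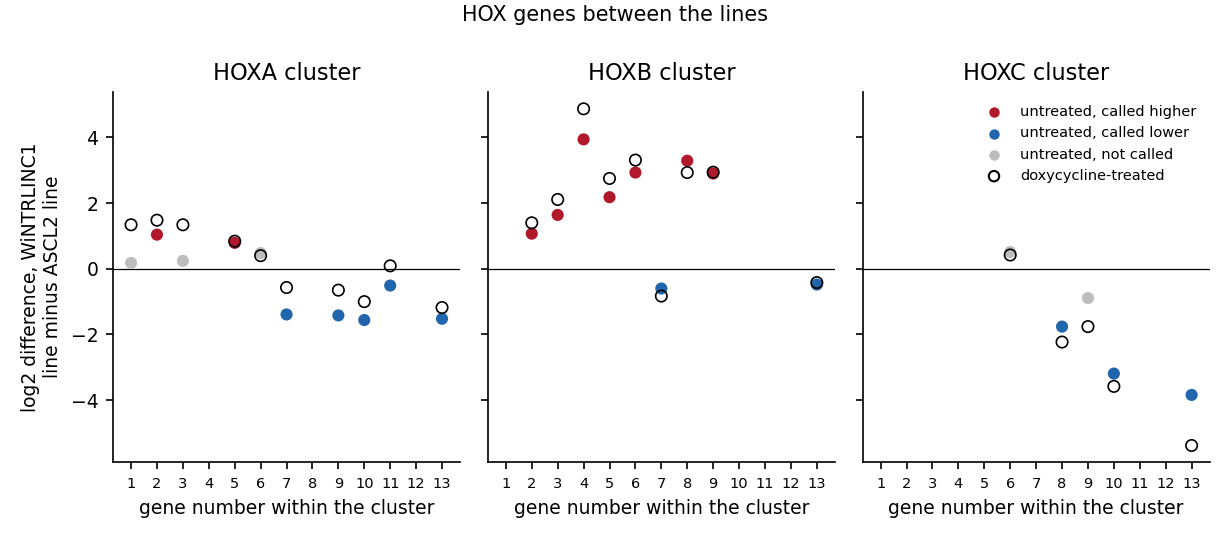
Log2 difference between the lines (WiNTRLINC1 minus ASCL2) for the HOX members, by gene number within the HOXA, HOXB and HOXC clusters. Filled points are the untreated libraries, coloured by the limma call, and open points the doxycycline-treated ones, and HOXB4, HOXB6, HOXB8 and HOXB9 stand highest.

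Clustered protocadherins, adhesion proteins made from arrays of alternative promoters, were lower in the WiNTRLINC1 line. Of 31 members, 23 were called lower and 1 higher, with a median of -1.70. Of these members 13 reached the minimum value in the ASCL2 line alone and so had to be lower. PCDHB2 had 463 and 384 in the ASCL2 line and 9 and 6 in the WiNTRLINC1 line, a log2 difference of -5.66. PCDHB10 had 264 and 247 against 52 and 51. PCDHB13, which was called higher, had 380 and 385 against 563 and 522. Members of an array share sequence, so their reads may be split among copies.

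Genes induced by interferon were mostly lower in the WiNTRLINC1 line. Of 35 members, 26 were called lower and 4 higher, with a median of -1.0, and all 35 reached the minimum in both lines. OAS1, which senses double-stranded RNA, had 15643 and 14954 in the ASCL2 line and 2915 and 2264 in the WiNTRLINC1 line, a log2 difference of -2.57 ± 0.0986 (SE, n = 2 per line; limma with Benjamini-Hochberg, adjusted p = 5.05e-11). IFI6 had 15426 and 15861 against 2910 and 2321, and IFIT1 3497 and 4660 against 764 and 664. The 4 higher genes were IRF9 and STAT2, which carry the interferon signal into the nucleus, and BST2 and XAF1. IRF1, MX1, MX2, IFIT3 and HERC5 were not called. In the treated libraries 26 members were called lower and 5 higher.

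Antigen presentation genes were called lower for 12 of 24 members and higher for 6. B2M, the light chain of class I molecules, had 11217 and 11621 in the ASCL2 line and 6894 and 6518 in the WiNTRLINC1 line. HLA-E had 9943 and 8407 against 4492 and 4004. CD74, the class II invariant chain, had 185 and 196 against 619 and 638, and HLA-DMA, a class II loading factor, 192 and 217 against 567 and 592. CIITA, the class II activator, had 12 and 10 against 9 and 11 and was not called. The other higher genes were NLRC5, an activator of class I genes, ERAP1, which trims peptides for class I, and the class I-like stress ligands MICA and MICB. ERAP1 had 212 and 222 against 494 and 454.

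TGF-beta and BMP signalling genes leaned toward the ASCL2 line, with 16 of 29 members called lower in the WiNTRLINC1 line and 5 higher. Beside TGFB1, the ligand BMP4 had 11314 and 9279 in the ASCL2 line and 3505 and 3299 in the WiNTRLINC1 line. The target ID1, an inhibitor of bHLH factors, had 5492 and 4528 against 1603 and 1454, and ID2 and ID3 were also called lower. The inhibitory SMAD6 and SMAD7 were called lower, and BMP7, TGFB3, ACVR2B, SMAD3 and SMAD9 higher. TGFBR2 had 1347 and 1422 against 978 and 984.

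Immediate early genes and feedback genes of the ERK pathway showed the same leaning, with 15 of 25 called lower and 5 higher. It was weaker with the length and GC trend removed, at 11 lower and 6 higher. JUNB, an AP-1 subunit, had 4169 and 4187 in the ASCL2 line and 429 and 384 in the WiNTRLINC1 line, a log2 difference of -3.36. EGR1 had 569 and 808 against 103 and 132, and the ERK phosphatase DUSP6 had 4119 and 4694 against 1533 and 1497. JUN was called higher, with 465 and 456 against 695 and 727. Among chemokines and NF-kB genes 12 of 23 were called lower and 6 higher, the epithelial alarmin IL33 with 1687 and 1576 against 170 and 160.

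Receptor tyrosine kinases and their ligands differed gene by gene, with 13 of 35 called lower and 8 higher. EPHB6 had 976 and 907 in the ASCL2 line and 17 and 11 in the WiNTRLINC1 line, a log2 difference of -6.0. MET, the hepatocyte growth factor receptor, had 4453 and 4196 against 1518 and 1667. The ligand EGF had 101 and 116 against 508 and 479, and KIT and IGF1R were also called higher. ERBB2 was not called, with 5393 and 4994 against 5776 and 5662. It was called under median-of-ratios rescaling (limma with Benjamini-Hochberg, adjusted p = 0.0354) and with the length and GC trend removed (0.000987). Of 19 Notch pathway genes 8 were called higher and 7 lower, but 12 higher and 5 lower with the length and GC trend removed. NOTCH1 had 2374 and 2422 against 7146 and 6677, while its target HES1 had 1307 and 1273 against 385 and 403.

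Matrix and adhesion genes were more often lower, with 20 of 39 collagens, laminins and integrins called lower and 9 higher. Removing the length and GC trend gave 19 lower and 13 higher. COL1A1 had 200 and 222 in the ASCL2 line and 20 and 19 in the WiNTRLINC1 line, and ITGA3, a laminin receptor subunit, 2755 and 2649 against 982 and 840. LAMB1 was called higher, with 1677 and 1694 against 3699 and 4020. Of 29 epithelial and junction genes, 12 were called lower and 8 higher, but 10 lower and 11 higher with the length and GC trend removed. KRT19 had 24576 and 19633 against 8582 and 7924, CLDN4 had 6752 and 6368 against 2768 and 2297, and EPCAM had 4835 and 4929 against 7439 and 8345. Mesenchymal genes were split, with 4 of 13 called higher and 5 lower, and ZEB1 was not called. Of 22 targets of YAP, the effector of the Hippo pathway, 10 were called higher and 8 lower.

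Cell cycle genes differed by small amounts in 1 direction. Of 27 members, 19 were called higher in the WiNTRLINC1 line and 1 lower, each by less than 2-fold, with a median of 0.36. CCNB1, the mitotic cyclin, had 3182 and 3022 in the ASCL2 line and 5747 and 6020 in the WiNTRLINC1 line. MCM4, a subunit of the replicative helicase, had 5949 and 6264 against 10659 and 10718. PCNA was the 1 gene called lower. Of 13 mismatch repair and related genes, 8 were called higher, with MSH6 at 1269 and 1195 against 2173 and 2496 and the polymerase POLE at 2316 and 2356 against 5942 and 5776, and 2 were called lower.

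Imprinted genes that lie close together on chromosome 11 differed in opposite directions. H19, a maternally expressed RNA, had 98831 and 83170 in the ASCL2 line and 245004 and 197159 in the WiNTRLINC1 line. PHLDA2 had 3624 and 3139 against 480 and 402, SLC22A18 had 1049 and 1042 against 246 and 219, and CDKN1C, a cell cycle inhibitor, 157 and 130 against 33 and 25. KCNQ1OT1, the RNA that silences these 3 genes in cis on the paternal copy, had 118 and 196 against 383 and 426. A link between its level and theirs was not tested. KCNQ1OT1 overlaps KCNQ1 on the other strand, and whether the counting used strand is not given in the sources used here. PLAGL1, on chromosome 6, had 349 and 389 against 16 and 14. Over 26 imprinted members 10 were called higher and 5 lower, and IGF2 was not called.

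Of 45 xenobiotic and NRF2 genes, 17 were called higher and 15 lower, with differences between families. With the length and GC trend removed, 19 were called higher and 11 lower. All 4 AKR1C members and 3 of 4 GSTM members were called higher, while 2 of 5 UGT2 members were called lower. Of 7 cytochrome P450 genes 3 were called lower and 1 higher. Members of these families share sequence, so their reads may be split among copies. UGT1A6, a glucuronosyltransferase, had 535 and 521 in the ASCL2 line and 2658 and 2665 in the WiNTRLINC1 line, and UGT1A1 and UGT1A10, which share exons with it, were also called higher. The drug exporter ABCB1 had 305 and 316 against 1813 and 2105. AKR1B1, an aldose reductase, had 12956 and 10747 against 2304 and 2069. In the treated libraries AKR1B1 had 3135 and 2978 against 2918 and 2941, and the difference between the lines was -0.06.

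Of 28 glycolysis and hypoxia genes, 15 were called higher and 7 lower. The carbonic anhydrase CA12 had 541 and 458 in the ASCL2 line and 3283 and 3264 in the WiNTRLINC1 line, and PKM had 117588 and 97309 against 59940 and 58621. Cholesterol synthesis genes were called lower for 18 of 26 members, with a median of -0.36, and higher for 1, LBR. SQLE, a rate-limiting enzyme, had 1823 and 1887 against 1155 and 1081. Of 8 metallothionein and zinc genes 5 were called lower and 2 higher. Of 26 cell cycle inhibitors and p53 targets 10 were called lower and 8 higher, and CDKN1A was not called. The balance of this list turned to 8 lower and 10 higher under quantile normalization and to 6 and 11 with the length and GC trend removed.

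Ribosomal protein genes and nuclear genes of oxidative phosphorylation were split. Of 39 cytosolic ribosomal protein genes 15 were called higher and 11 lower, RPS6 with 22824 and 21283 against 39754 and 42400 and RPL30 with 4254 and 4434 against 1950 and 1952. Of 29 oxidative phosphorylation genes 9 were called higher and 14 lower. NDUFA4 had 1381 and 1331 against 361 and 310. Differences between the lines moved with transcript length. Among protein-coding members with a mean of at least 100, the median log2 difference was -0.32 in the fifth with the shortest transcripts and 0.07 in the fifth with the longest. It was -0.18 at the lowest GC content, 0.07 in the middle and -0.25 at the highest. With the trend on both removed from each library, the difference changed sign for ASCL2, as given above, and for RPUSD1, from -0.49 to 0.33. JUND went from a called difference of -1.11 to 0.0.

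**Figure D4:**
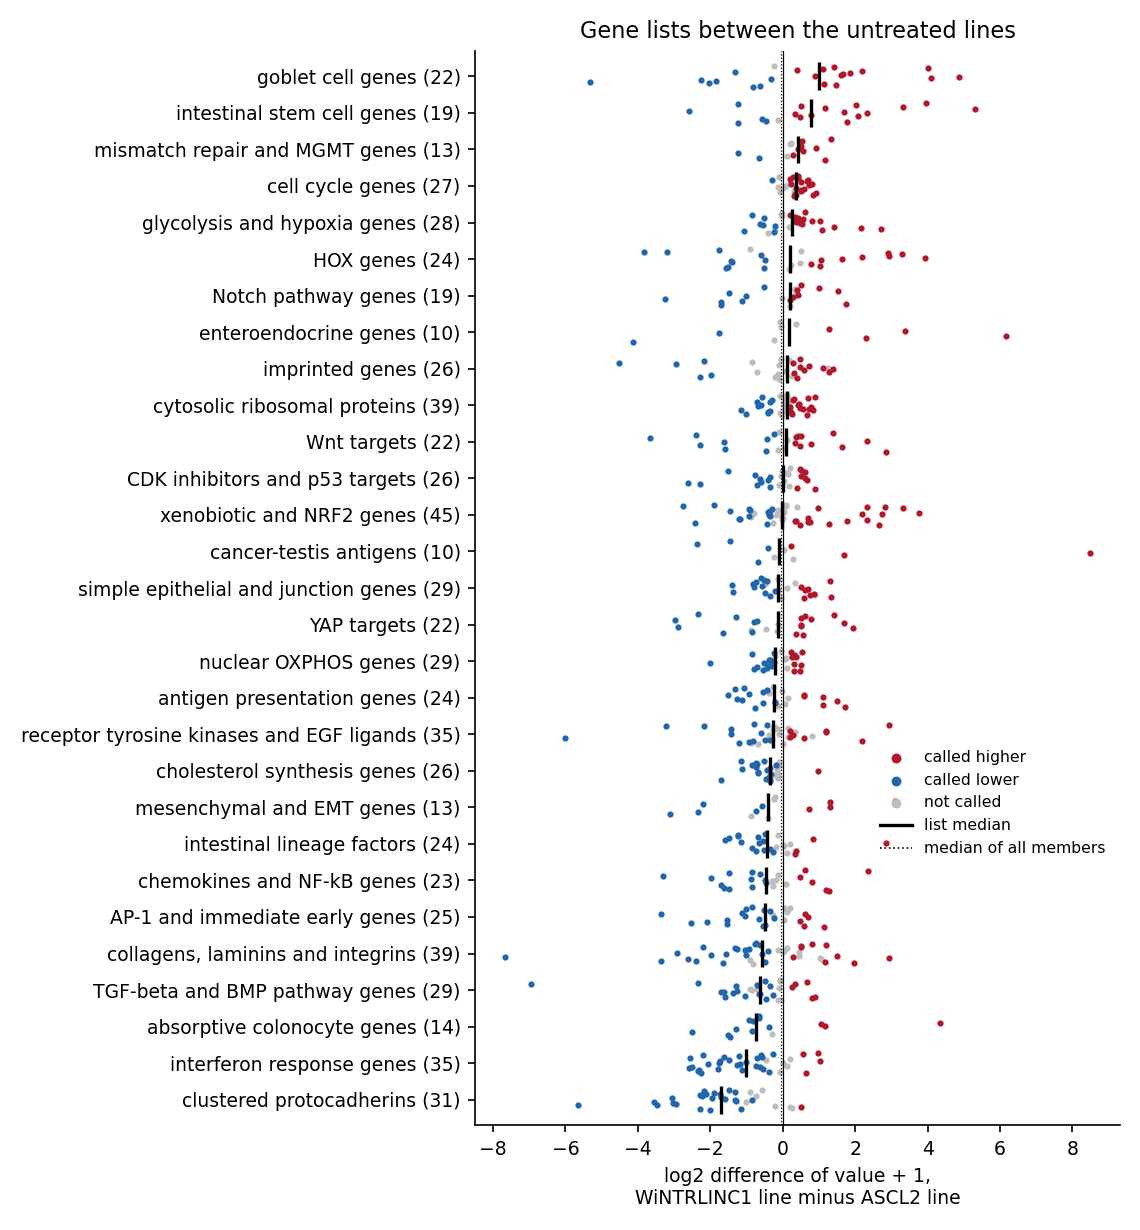
Log2 difference between the untreated lines for the members of each gene list with at least 10 members, 1 point per gene, with the number of members in brackets, a black bar at the list median and a dotted line at the median of all members. Goblet and stem cell genes have the highest medians (1.0 and 0.78), and interferon genes and clustered protocadherins the lowest (-1.0 and -1.70).

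Genes of other cell types stayed low, with exceptions. Summed values of 10 fibroblast markers were 329 to 332 in the ASCL2 line and 173 to 195 in the WiNTRLINC1 line, and those of 11 immune markers 98 to 125 and 99 to 142. Endothelial markers summed to 890 to 899 and 76 to 99, and most of the difference was EGFL7, a secreted protein, with 668 and 646 against 6 and 4. The defining endothelial markers CDH5 and CLDN5 had values of at most 9 in every untreated library. Neuronal markers summed to 479 to 515 and 125 to 134, of which MAP2, a microtubule protein, had 331 and 369 against 19 and 19. SNAP25 and SYN1 had at most 4.

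Line-restricted genes were those with at most 3 in both libraries of one untreated line and at least 50 in both of the other. There were 11 in the WiNTRLINC1 line and 27 in the ASCL2 line. The choice fixes their difference in these libraries, so values of the treated libraries, which took no part in it, are given. In them 9 of the 11 and 12 of the 27 met the same limits. Both treated libraries of one line lay beyond both of the other for each of these genes, and for 80.8% of all members. In treated cells the line that lacked the gene had at most 3 for the first set and at most 18 for the second.

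Among the genes restricted to the WiNTRLINC1 line, ISL2, a homeobox factor of motor neurons, had 1 and 2 in the untreated ASCL2 line and 319 and 259 in the WiNTRLINC1 line. After doxycycline the values were 3 and 2 against 428 and 361. The zinc finger gene ZNF182 had 2 and 2 against 271 and 282, and 2 and 2 against 323 and 320 after doxycycline. The neighbouring lipocalin genes LCN8 and LCN10 were both restricted to this line, LCN8 with 1 and 3 against 371 and 303 and LCN10 listed at 0 against 58 and 53.

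Among the genes restricted to the ASCL2 line, TFAP2C, a factor of germ cells and trophoblast, had 131 and 147 against 3 and 2. NKX2-5, known from heart development, had 116 and 109 against 1 and 3, and 111 and 102 against 1 and 2 after doxycycline. The ephrin EFNA2 had 274 and 237 against 2 and 0. The mast cell tryptases TPSAB1 and TPSB2 are near-identical copies, so their separate values are uncertain. TPSAB1 had 143 and 126 against 0 and 3. RANBP3L behaved differently after treatment, with 284 and 240 in untreated ASCL2-line cells but 19 and 7 in treated ones, against 1 and 2, and 5 and 0, in the WiNTRLINC1 line.

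Stretches of neighbouring genes were ranked by their median difference. In windows of 25 consecutive members with a mean of at least 50, ordered by the GENCODE annotation, the median log2 difference lay between -0.4 and 0.27 for the middle 90% of 14056 overlapping windows. The highest window, on chromosome 4 and ending at TRAPPC11, had a median of 0.95, with 16 members called higher and 3 lower, and it held HMGB2, TENM3, SPCS3 and DCTD. HMGB2, a chromatin protein, had 2012 and 2025 in the ASCL2 line and 6468 and 7151 in the WiNTRLINC1 line. The lowest, on chromosome 2 from MYCN to PTRHD1, had a median of -0.88, with 21 members called lower and 2 higher. In it LAPTM4A, a lysosomal protein, had 5225 and 5020 against 1776 and 1772, and VSNL1, a neuronal calcium sensor, 3201 and 3656 against 1284 and 1322.

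A second low window on chromosome 2, from SNX17 to SPAST, had a median of -0.82. Another on chromosome 16, from STUB1 to BAIAP3, had -0.83. With the length and GC trend removed these 2 medians were -0.53 and -0.30, and within the latter STUB1 went from 0.14, not called, to a called 0.82 and RPUSD1 from -0.49 to 0.33. The other 4 windows moved by at most 0.03. The other high windows were NPIPA1 to PKD1P5 on chromosome 16 with 0.82 and ZNF17 to ERVK3-1 on chromosome 19 with 0.63. NPIPA1 and PKD1P5 belong to duplicated families whose reads may be split. The treated libraries gave 0.80, 1.02 and 0.62 for the 3 high windows and -1.11, -0.80 and -0.60 for the 3 low ones. The windows are the extremes of many, and whether neighbouring genes differed together more than in a random order was not tested. Copy number was not measured.

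The line difference mostly kept its direction after doxycycline. Between the treated lines 13354 members (63.6%) were called, 29.9% of members higher and 33.7% lower. Of the 12090 called in untreated cells, 9658 (79.9%) were called in the same direction in treated cells and 304 in the opposite one. Of the 5037 called at least 2-fold apart, 4278 (84.9%) were called in the same direction and 22 in the opposite one. Across members, which are not independent replicates, Pearson's r between the untreated and treated differences was 0.863 and Spearman's rho 0.824. The contrasts share no library, but each is within the same pair of lines. Both come from a single fit of all 8 libraries with a shared spread per gene, so their calls are not separate tests. With only the 4 libraries compared in each fit, 11210 members were called between untreated lines and 13266 between treated ones.

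The difference itself changed with doxycycline for 3327 members (15.8%) by the interaction term. Induction of each hairpin is part of this contrast, so response and line cannot be told apart in it. KLK6 had 40 and 39 against 4152 and 4233 after treatment, close to its untreated values. PIGR had 44 and 47 against 36117 and 36382, and its difference grew by 0.63 (limma with Benjamini-Hochberg, adjusted p = 0.00919). TEX19, a germline gene, had 114 and 116 against 42 and 41 in untreated cells. Its log2 difference of -1.45 became -5.91 after treatment, an interaction of -4.46 (limma with Benjamini-Hochberg, adjusted p = 1.57e-07). KRT18 went from -0.57 to -2.81. KRT18 has many processed copies in the genome, so its value is uncertain.

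**Figure D5:**
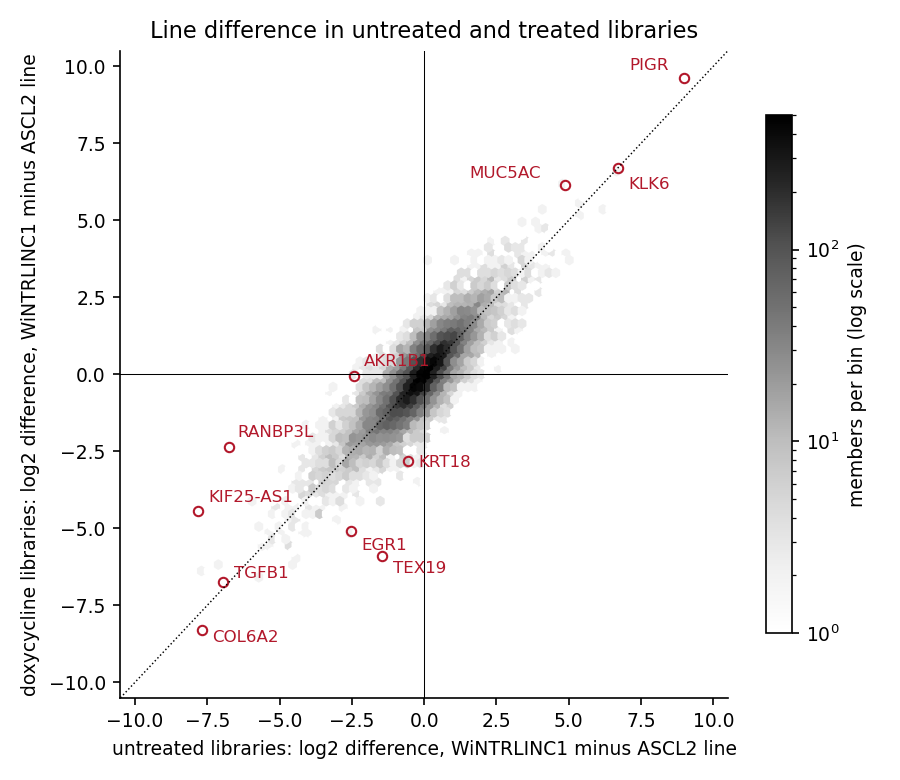
Log2 difference between the lines (WiNTRLINC1 minus ASCL2) in untreated libraries (x axis) and in doxycycline-treated libraries (y axis), shaded by the number of members per bin on a log scale, with the dotted line marking equal differences. PIGR, KLK6, TGFB1 and COL6A2 lie near that line, whereas AKR1B1, RANBP3L, KIF25-AS1 and TEX19 lie away from it.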

How the data were processed

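The values are scores deposited by the authors: whole numbers per Ensembl gene that the values themselves show to be read counts scaled per library and rounded, so tests for raw counts were not applicable. The tools listed are TopHat2 2.0.9, cutadapt, DESeq and Cufflinks, per the submitters' processing notes, which also list GRCh37, hg19 and mm9 without saying for what. How reads were counted, and whether by strand, is not given in the sources used here. RNA was isolated with Trizol and sequenced on the Ion Proton, per the labels' protocols. Deposited totals of the 8 libraries lay between 21524463 and 22941231. Being scaled, they set only the approximate precision of low values.

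All 8 libraries, in 4 groups of 2, entered limma 3.58.1 (R 4.3.3) after log2(value + 1), with eBayes fitting a trend of variance on mean and no covariate, with 4 residual and 10.17 prior degrees of freedom. Contrasts were the line difference in untreated cells, the same in treated cells, and their difference. A symbol was found for 18528 members, and 20421 were in GENCODE 29, used for gene type, order, length and GC content, since its build is not the one the submitters name. Promoters came from RefSeq.

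Members and the 35 gene lists were chosen with earlier results of these data known. Named genes were the 12 per direction with the largest called difference and a mean of at least 100 in the higher line, the 8 per direction with a mean of at least 1000 in the lower line, the 10 highest line-restricted genes per direction, up to 4 called genes per list with the smallest adjusted p plus set genes, and the ends and highest called genes of 6 windows. Other genes in the text come from the lists and were chosen after their values were seen. Alternatives changed the pseudocount, filter, trend, libraries in the fit, scaling and replicate block, or left out 1 library. Those on members reaching the minimum in each line, protein-coding genes, and length and GC content were chosen after seeing the data. The fit was tested on simulated data.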

Additional observations from a re-analysis of the deposited data

Results flagged for a closer look

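For 83 of the 229 named genes the difference between the lines was not the same in untreated and in doxycycline-treated cells, by limma's interaction term with a Benjamini-Hochberg adjusted p under 0.05. The values are the treated minus the untreated log2 difference (WiNTRLINC1 line minus ASCL2 line, 2 libraries per group). Hairpin induction and response to doxycycline are part of this term and cannot be told apart, and no cause was tested.

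In 9 genes the sign of the line difference changed with treatment, though AXIN2 was not called in untreated cells and TNFRSF10B and PDXDC1 were not in treated ones. The term was -1.0 for ZNF274, -0.74 for ABCC1, -0.66 for PDXDC1, -0.64 for TNFRSF10B, -0.63 for PPM1G, 0.61 for AXIN2, 0.87 for ASCL2, 1.07 for JUP and 1.28 for KRT20. ASCL2 itself is among them, with a line difference of -0.45 in untreated and 0.42 in treated cells.

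In 47 genes the line difference was larger after doxycycline, with the same sign. Neither CDKN1A, with a term of -1.07, nor CDX2, with 0.40, was called in untreated cells. The following were lower in the WiNTRLINC1 line. The term was -4.46 for TEX19, -2.56 for EGR1, -2.24 for KRT18, -1.97 for CXCL1, -1.59 for MSMO1, -1.58 for MET, -1.5 for PLAGL1 and -1.29 for PCDHB2. Further values were -0.95 for SPAST, -0.95 for CLDN4, -0.94 for NRBP1, -0.89 for SUPT4H1, -0.87 for IFI6, -0.77 for JAG2 and -0.76 for JUND. Others were -0.72 for IFI27, -0.69 for NKD1, -0.66 for JUNB, -0.55 for OAS1, -0.55 for ID2, -0.52 for B2M, -0.47 for DUSP6 and -0.35 for PUM2.

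Genes higher in the WiNTRLINC1 line, and more so after doxycycline, included LGR5 and the mucin and trefoil genes MUC2, MUC5AC and TFF2. The term was 0.36 for LAMB1, 0.38 for HMGB2, 0.46 for CHTF18, 0.56 for HOXB5, 0.62 for HLA-DMA, 0.63 for PIGR and 0.64 for RRN3. Further values were 0.68 for MUC2, 0.69 for LETM1P2, 0.74 for S100A4, 0.75 for CDX1, 0.81 for LGR5, 0.81 for DPEP1, 0.95 for CD74 and 1.14 for CA9. Others were 1.24 for PLA2G2A, 1.25 for SMOC2, 1.28 for MUC5AC, 1.44 for TFF2, 1.47 for MALRD1, 1.5 for ADGRB1 and 1.64 for ALDH3A1.

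In 27 genes the line difference was smaller after doxycycline. RANBP3L, restricted to the ASCL2 line in untreated cells, had the highest of these terms. The term was -1.52 for TGFBI, -1.13 for KRT80, -0.89 for DPP4, -0.84 for UGT1A6, -0.83 for ABCB1, -0.83 for RGMB, -0.71 for CRYBG1, -0.61 for COL18A1 and -0.39 for SPCS3. Further values were 0.32 for SDC1, 0.53 for SNX17, 0.56 for CKB, 0.62 for TM7SF2, 0.64 for CRIM1, 0.64 for CEACAM5, 0.65 for KIF26A, 0.66 for FOXA1 and 0.75 for KLF4. Others were 0.85 for IL33, 0.96 for HES1, 1.09 for CALB1, 1.33 for ESPN, 1.61 for ESAM, 1.87 for EVA1B, 2.37 for AKR1B1, 3.39 for KIF25-AS1 and 4.37 for RANBP3L.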

How the results depend on the processing

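Of 3602 values of the 229 named genes under 20 alternatives, 3550 kept their direction and their side of the threshold, 35 lost the call, 11 gained it and 6 changed sign. With the length and GC trend removed the log2 difference was 0.62 for ASCL2, 0.13 for CDKN1A, 0.33 for RPUSD1 and 0.0 for JUND. For CDKN1A it ran from -0.17 to 0.0 and for ZEB1 from -0.9 to 0.44 with 1 library left out, the sign changing without the first library of the ASCL2 line for CDKN1A and without the second for ZEB1. The cause was not tested. The 12090 calls between untreated lines became 8864 to 12378, 10412 to 10669 with 1 library left out. The 13354 between treated lines became 11440 to 13504, and 11626 to 11731 with 1 left out.

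The 3327 interaction calls became 1914 without a filter and 1477 without the mean-variance trend, and 2332 to 2987 with 1 library left out. The 5037 calls of at least 2-fold became 3309 at a minimum value of 50 and 2904 over protein-coding genes, where fewer genes are tested, and 4590 to 4804 with 1 left out. At the minimum of 50, called members fell to 8 protocadherins, 1 enteroendocrine, 1 Paneth, 1 neuronal and 0 immune genes, as no immune marker reached it. With members reaching 10 in each line they were 12, 2, 1, 2 and 1, and 1 endothelial gene. Without the first ASCL2-line library 1 immune gene was called.

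With the replicate number as a block 12144, 13407 and 3417 members were called in the 3 contrasts. Deviations of same-numbered untreated libraries correlated at 0.13 across genes, and with 2 numbers they were not taken as pairs. Those of the untreated and treated WiNTRLINC1-line libraries correlated at 0.302, and the cause was not tested. With 2 libraries per group, values near the minimum of 10 limit small differences.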
